A study of Mus musculus with 2 samples.

Results

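The epithelial cell adhesion molecule gene Epcam and 7 keratin genes (Krt5, Krt7, Krt8, Krt14, Krt15, Krt18 and Krt19) were followed through every cluster of cells from mouse salivary glands with open or blocked ducts. They are 8 of the 20140 genes in the tables and were taken by name, though with earlier results of these data known. The mice were C57BL6/J females aged 14 weeks. In the ligated group a metal clip sat on the main submandibular and sublingual ducts for 14 days. In the mock group these ducts were found but left free, and the glands were also taken after 14 days. Each group was 1 droplet library (10X Genomics) made from 2 glands, so there was no replicate spread, no difference carries a test, and each describes these 2 libraries. Before capture, both suspensions were stripped of cells bearing EpCAM or the erythroid antigen Ter119 with magnetic beads, in 2 rounds, and then of dead cells. The epithelial transcripts described here are therefore those left after a depletion aimed at the protein product of one of the genes studied.

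Keratins form the intermediate filaments of epithelial cells, and each filament is built from pairs of a type I and a type II keratin. Krt8 (type II) and Krt18 (type I) are the usual pair of single-layered, luminal epithelium, where Krt7 (type II) and Krt19 (type I) are added in ducts. Krt5 (type II) and Krt14 (type I) are the pair of basal and myoepithelial cells, and Krt15 (type I) is a further basal keratin. Epcam encodes a surface protein of most glandular epithelium and is a standard handle for sorting or removing epithelial cells. In salivary gland, luminal keratins mark ducts and acini, and Krt5 and Krt14 mark basal duct cells and the contractile myoepithelial cells around acini.

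The genes lie in 3 places of the mouse genome (GRCm38.p6). The type II genes Krt7 (chr15:101412403-101427806, plus strand), Krt5 (chr15:101707069-101712905, minus strand) and Krt8 (chr15:101996711-102004342, minus strand) share chromosome 15 with the type I gene Krt18 (chr15:102028216-102032026, plus strand), which begins 23873 bases from Krt8. The other type I genes are on the minus strand of chromosome 11: Krt15 (chr11:100131759-100135949), Krt19 (chr11:100140810-100145926) and Krt14 (chr11:100203162-100207510). Epcam is on the plus strand at chr17:87635979-87651127. Exon bases are shared only with genes of the opposite strand (Gm44323 with Krt5, Gm671 with Krt7 and Gm36026 with Krt8), and none of those has a row in the tables.

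The 3 genes that were higher in ductal-like cells of the ligated library by more than the size rule given with the levels were Epcam, Krt7 and Krt18, and their upstream sequences are shown to let a reader compare genes that moved together. Each is the 250 bases before the RefSeq start (build GRCm38.p6), written 5′ to 3′ on the gene's own strand, at chr17:87635729-87635978 for Epcam, chr15:101412153-101412402 for Krt7 and chr15:102027966-102028215 for Krt18. Capitals mark GC boxes (GGGCGG on either strand).
Epcam: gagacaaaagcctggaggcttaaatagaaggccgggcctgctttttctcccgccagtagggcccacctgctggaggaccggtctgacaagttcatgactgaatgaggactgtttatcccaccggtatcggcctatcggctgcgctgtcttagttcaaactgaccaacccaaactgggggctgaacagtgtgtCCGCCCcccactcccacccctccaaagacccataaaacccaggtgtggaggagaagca
Krt7: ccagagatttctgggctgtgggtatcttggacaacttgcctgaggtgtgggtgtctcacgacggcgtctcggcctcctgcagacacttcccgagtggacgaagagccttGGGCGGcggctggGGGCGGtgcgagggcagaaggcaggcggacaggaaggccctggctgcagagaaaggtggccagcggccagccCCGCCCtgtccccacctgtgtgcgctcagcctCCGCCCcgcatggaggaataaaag
Krt18: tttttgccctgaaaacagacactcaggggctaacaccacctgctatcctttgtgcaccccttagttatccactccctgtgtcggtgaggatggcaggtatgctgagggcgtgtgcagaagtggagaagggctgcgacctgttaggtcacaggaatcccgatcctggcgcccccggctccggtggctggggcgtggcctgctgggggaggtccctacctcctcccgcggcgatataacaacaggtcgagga
The Krt7 window held 4 GC boxes, which began 141, 128, 56 and 24 bases before the start. Epcam held 1, 58 bases before its start, and Krt18 held 0. None of these windows held, on either strand, the letters CCAAT, the TATA box (spelled TATAAA) or the motif of the factor AP-1 (spelled TGANTCA). Among 32851 promoters of the same length, 32.7% held a GC box, 12.4% a TATA box, 33.8% a CCAAT box and 6.75% an AP-1 motif. The windows of Krt5 and Krt8 held none of the 4 motifs. A match of letters is a description of the sequence and not a binding site.

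The level of a gene is its number of unique molecular identifiers (UMIs, 1 per captured RNA molecule) per 10000 UMIs of a cell, averaged over the cells in a cluster. Cell numbers recovered from the means came to 4199 mock and 11406 ligated cells. Estimates of single cells' UMI totals were recovered, 606 for mock (median 6568) and 2165 for ligated cells (median 6754), a sample that favours deep cells. At least 1 estimate is not a cell's total, since the 59 ligated cells of cluster 11 gave 60. Differences between the libraries are log2((ligated + 0.1)/(mock + 0.1)) and are too small for genes of low level. The size rule asks for a level of at least 0.5 in the library where the gene is higher and for a difference of 1 or more in either direction. It was applied in the 9 clusters where both libraries had 50 cells or more, and to cluster 8 with its cell numbers given.

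The clusters were checked against marker lists. Cluster 7 was ductal-like: its 10 leading genes by fold included Klk1, Klk1b9 and Wfdc2 of the ductal list and Krt7 and Krt18 of the luminal keratins. It held 201 mock cells (4.79% of that library, exact Clopper-Pearson 95% interval 4.16 to 5.48) and 278 ligated cells (2.44%, 2.16 to 2.74), and these intervals cover counting error only. Its cells were shallow, with a median of 1082 UMIs over 99 recovered mock totals and 1012 over 152 ligated totals. Cluster 8 was led by acinar genes (Dcpp3, Dcpp2, Dcpp1, Prol1, Mucl2 and Pip) and held 25 mock cells (0.595%, 0.386 to 0.878) and 264 ligated cells (2.31%, 2.05 to 2.61). It was left unnamed, because in its ligated cells the 10 endothelial markers summed to a level of 50.5 (3.37 in mock) and the 8 fibroblast markers to 42.5 (0.278 in mock). Cluster 6 was mural-like, led by Rgs5, Kcnj8 and Notch3 of vessel-wall cells, with 161 mock and 420 ligated cells.

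**Figure D1:**
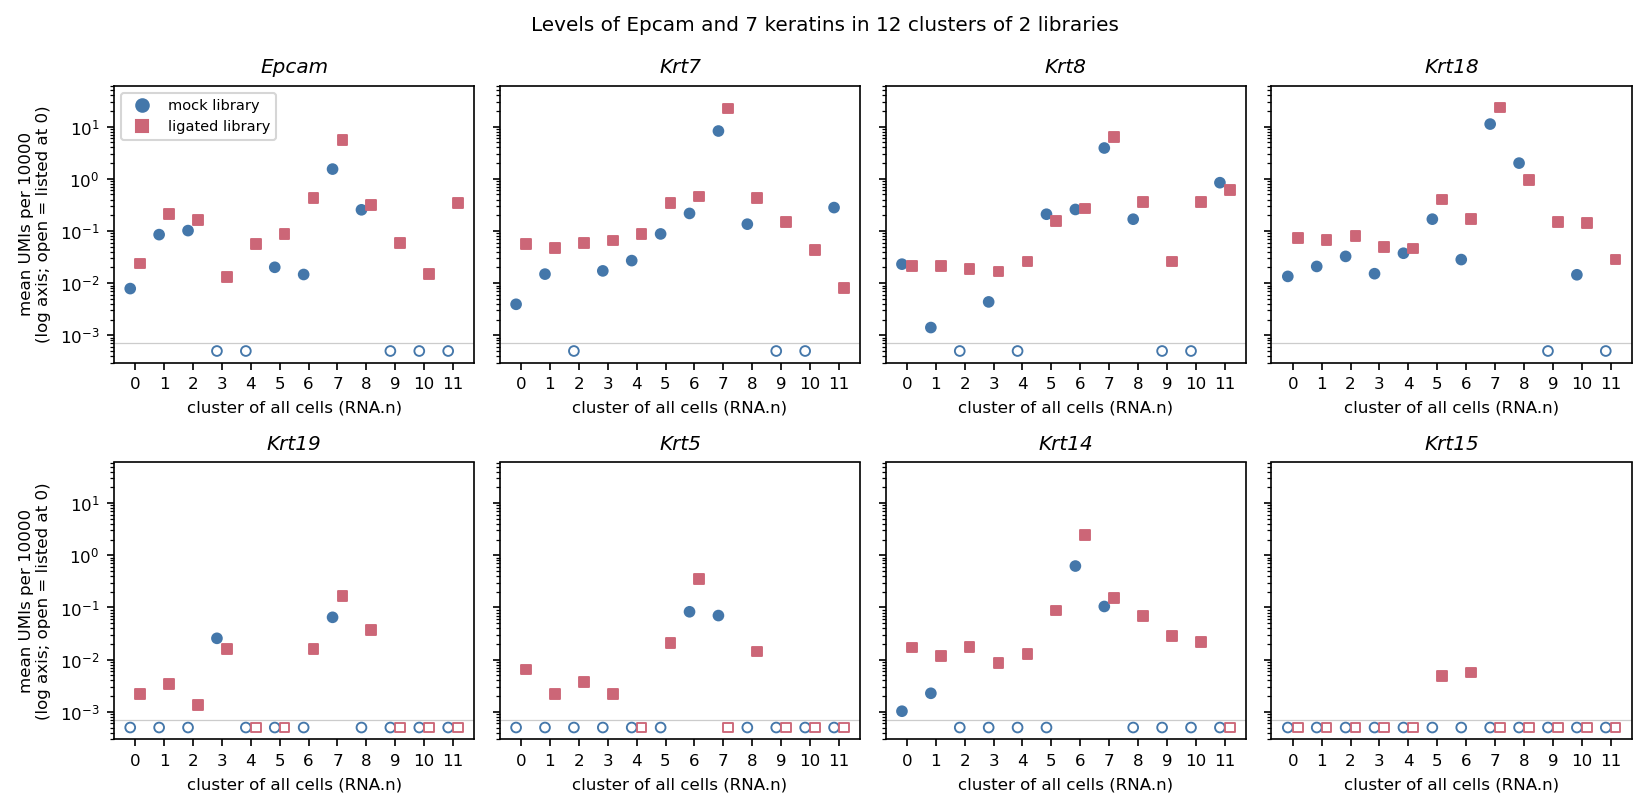
Level of each gene (mean UMIs per 10000, log axis) in the 12 clusters of all cells, circles for the mock library and squares for the ligated library, with open symbols at the foot where a gene is listed at 0. Epcam, Krt7, Krt8, Krt18 and Krt19 were highest in cluster 7 of the ligated library (Krt8 at 6.37), while Krt5 and Krt14 were highest in cluster 6 of that library.

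In the ductal-like cluster, the luminal keratins and Epcam were higher in the ligated library. Krt7 stood at 8.23 in the mock and 22.3 in the ligated library, a difference of 1.43 and a 2.71-fold ratio. Krt18 stood at 11.2 and 23.3 (difference 1.05, ratio 2.08). Epcam, the target of the beads, stood at 1.53 and 5.59 (difference 1.80, ratio 3.64). Each of these was past the size rule, and the ligated level was above the mock level in all 3. Krt8 stood at 3.89 and 6.37, a difference of 0.70 that was not past the rule. Thus 3 of the 4 members that reached a level of 0.5 there were past the rule, all higher after ligation, beside 26.5% of the 3255 genes that reached it (14.8% higher and 11.6% lower). The median difference over 9367 genes with a mean level of at least 0.05 was 0.019. At the median recovered UMI total, the Epcam levels correspond to about 33.3 mock and 157 ligated UMIs over the whole cluster, and the Krt18 levels to about 243 and 654. Krt18 lay nearest to the limit of the rule among the 3, and with a pseudocount of 1 its difference was 0.99.

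The ratios between these genes differed between the libraries, with 1 value per library and no error between samples. Per Krt18 UMI, Krt7 went from 0.736 in mock to 0.958 in ligated ductal-like cells, Epcam from 0.137 to 0.240, and Krt8 from 0.348 to 0.274. At the median totals, Krt8 rested on about 84.5 mock and 179 ligated UMIs. Klk1, a tissue kallikrein made by salivary ducts, was itself higher, at 346 in mock and 898 in ligated cells (difference 1.38). Per Klk1 UMI, Krt18 was therefore slightly lower after ligation, at 0.0323 and 0.0259. Leaving out the genes at a level of 50 or more and rescaling the rest moved the differences of Epcam, Krt7, Krt18 and Krt8 little, to 1.86, 1.48, 1.10 and 0.75.

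The remaining keratins were near the limit of detection in ductal-like cells. Krt19, a luminal keratin of ducts, stood at 0.0647 and 0.165, and the mock level rested on 1 UMI in 1 cell of 769 UMIs. Krt14 stood at 0.104 and 0.151. Krt5 stood at 0.0699 in mock cells and at 0 in ligated cells (0 of 278 cells, which allows up to 1.08% of cells with a UMI). Krt15 was listed at 0 in both. Basal keratins (Krt5 plus Krt14) per luminal keratin (Krt8 plus Krt18) came to 0.0116 in mock and 0.00510 in ligated cells.

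Surface and junction genes of epithelium were higher along with Epcam. The list held 15 genes including Epcam, and 13 had a mean level of at least 0.05 in cluster 7. It was chosen with earlier results of these data known, so the shares over all genes beside it are description and no test. Of those 13, 12 were higher in the ligated library and their median difference was 1.34, against 51.2% and 0.019 over all genes at that level. The 5 that reached a level of 0.5 were all past the rule and higher: Epcam, the tight junction claudins Cldn3 (0.347 to 1.98), Cldn4 (0.271 to 0.728) and Cldn7 (0.399 to 2.44), and the protease inhibitor Spint2 (0.802 to 2.56). Over all 3255 genes at that level, 14.8% were past the rule and higher. Cdh1, encoding E-cadherin, stood at 0.0508 and 0.282 and did not reach that level. Cldn10 stood at 0.172 and 0.128 and was the single gene of the 13 that was lower.

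Genes that hold keratin filaments at junctions did not move as a group. Of 12 desmosome and linker genes, 11 entered, 7 of them were higher and the median difference was 0.10. Perp, a desmosomal membrane protein, was past the rule (0.589 to 2.73), while the desmoplakin gene Dsp stood at 0.362 and 0.395 and the plakoglobin gene Jup at 1.55 and 0.920. Epithelial transcription and splicing factors lay mostly the other way, many of them at low levels. Of 18 genes, 16 had a row and 14 entered, 4 of them were higher, and the median difference was −0.50. Only 5 of the 14 reached a level of 0.5, and directions below it rest on few UMIs in these shallow cells. The splicing factor gene Esrp1 (0.917 to 0.197) was past the rule and lower, and Ascl3 (0.402 to 0.983), a factor of a duct progenitor lineage, was past it and higher. The factor Ehf stood at 3.14 and 1.67 and Elf3 at 0.947 and 1.54, neither past the rule.

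**Figure D2:**
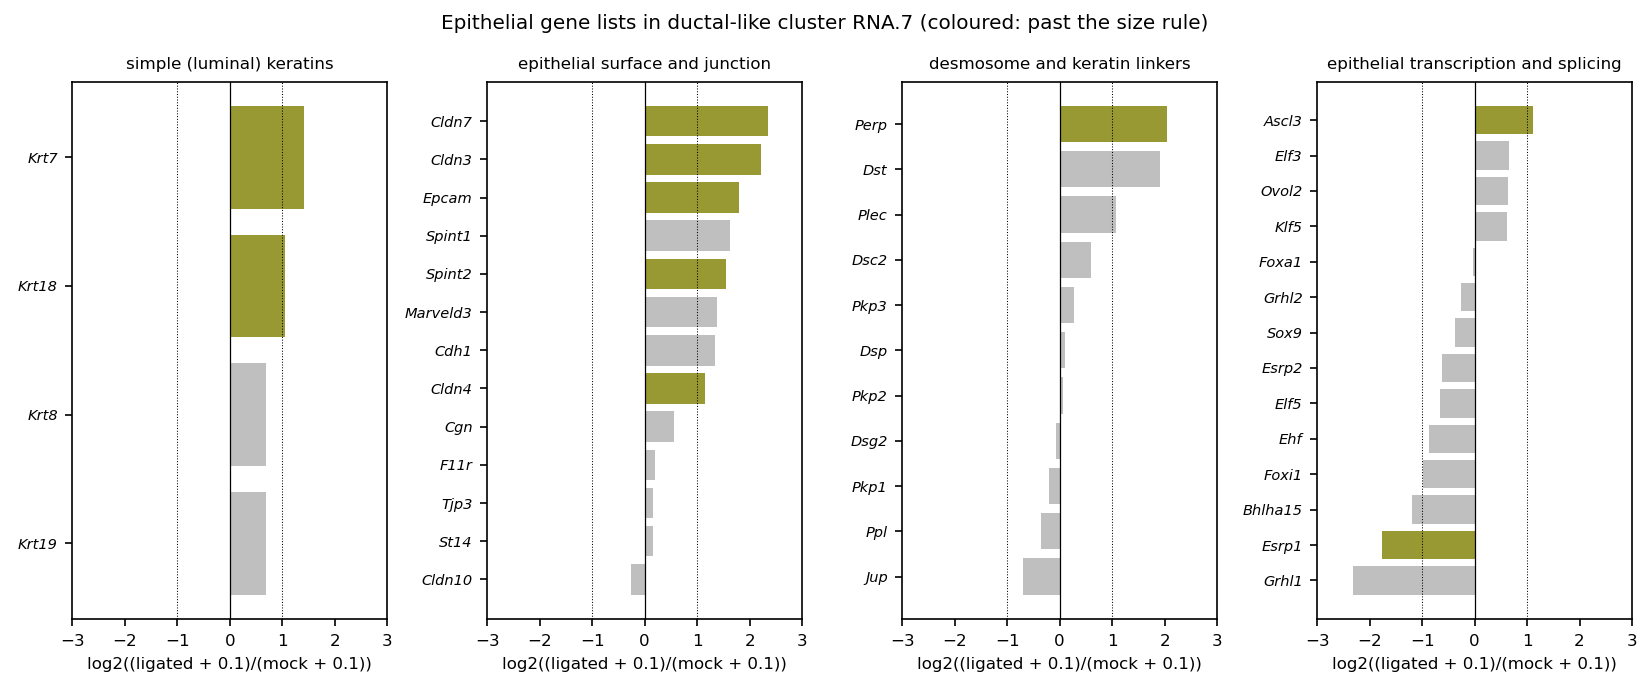
Difference between the libraries, log2((ligated + 0.1)/(mock + 0.1)), of each list gene with a mean level of at least 0.05 in ductal-like cluster 7, in 4 lists, with coloured bars for genes past the size rule and dotted lines at differences of 1 and −1. In the surface and junction list 12 of 13 bars point to the ligated side, and in the transcription and splicing list 4 of 14 do.

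Other cell lineages were read in the same cluster. Of 16 ductal genes, 7 reached the level the rule needs. Of these 7, 5 were past the rule and higher: Klk1, Ascl3, Wfdc2, Wfdc18 and Clu, a secreted chaperone. Wfdc2 stood at 3.81 and 18.4, Wfdc18 at 2.22 and 7.55, and Clu at 0.116 and 6.07. Over all 3255 genes at that level, 14.8% were past the rule and higher. The median difference of the 12 ductal genes that entered was 0.38. Of 8 acinar genes that entered, 3 were higher and the median was −0.76. At the level the rule needs there were 3 acinar genes, and 1 was past the rule, Prol1, which was higher (1.62 to 6.28). The 4 myoepithelial genes at that level were all past the rule and higher (Acta2, Tagln, Itga6 and Cxcl14). Of 7 myoepithelial genes that entered, 6 were higher, the median was 1.60, and the smooth muscle actin gene Acta2 stood at 0.370 and 1.32, while Trp63 (the basal factor p63) was listed at 0 in both libraries and Krt17 stood at 0 and 0.0555. Simple keratins had a median of 0.87 over 4 genes, and of the 4 basal keratins 1 entered (Krt14). Markers of several other cell types were also higher in the ligated cluster: the 8 fibroblast markers summed to 1.22 in mock (Col1a1 and Pdgfra at 0) and 6.03 in ligated cells, the 8 macrophage markers to 0.566 and 5.16, and the 10 endothelial markers to 7.86 and 12.8. The 6 erythroid markers went the other way, summing to 7.31 and 3.09. The part of these other cell types in the differences of the epithelial genes was not tested.

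Cluster 8, the one led by acinar genes, gave the opposite direction for Krt18. Krt18 stood at 2.00 in the 25 mock cells and 0.946 in the 264 ligated cells, a difference of −1.0 just past the rule. Epcam stood at 0.254 and 0.319, Krt8 at 0.168 and 0.360, and Krt7 at 0.135 and 0.434, and the mock level of Krt7 rested on 2 UMIs in 1 cell of 5931 UMIs. Krt14, Krt5 and Krt19 were listed at 0 in the mock cells (0 of 25, which allows up to 12% of cells) and stood at 0.0683, 0.0143 and 0.0364 in the ligated cells, Krt19 from 1 UMI in 1 cell. Krt18 was the 1 member to reach a level of 0.5, and 75.1% of the 3754 genes that did so were past the rule there. Genes past it on the lower side made up 5.59% of the 3754. Per Krt18 UMI, Krt8 went from 0.0841 in mock to 0.381 in ligated cells.

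These levels share a denominator that differed sharply between the libraries. Genes at a level of 50 or more took 66.0% of the UMIs of the mock cells, with Mucl2, a mucin-like secretory product, alone at 3085, and 12.4% of those of the ligated cells. The median difference over 9819 genes of cluster 8 was 1.36. With those genes left out and the rest rescaled, Krt18 differed by −2.37, Epcam by −0.90 and Krt8 by −0.24, so Epcam and Krt8 changed direction, while Krt7 differed by 0.24. Taken relative to the median of all genes, Krt18 differed by −2.37, and Epcam (−1.12), Krt5 (−1.17), Krt7 (−0.18), Krt8 (−0.58), Krt14 (−0.61) and Krt19 (−0.91) changed from higher to lower. The ligated cells also carried more markers of other lineages (above) and had a median of 1053 UMIs against 5440 in mock, and their part in these values was not tested.

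Krt14 expression lay mainly outside the epithelial clusters, in mural-like cluster 6. Krt14 stood at 0.622 in mock and 2.46 in ligated cells, a difference of 1.83 that was past the rule, or about 65.4 and 515 UMIs at the median total. Krt5, its filament partner, stood at 0.0826 and 0.348 (difference 1.30), below the level the rule needs. Krt17, a keratin of basal and myoepithelial cells that was not among the 8, stood at 0.473 and 1.77 (difference 1.71). The ratios of the 3 genes were close in both libraries: Krt5 per Krt14 UMI was 0.133 in mock and 0.142 in ligated cells, and Krt17 per Krt14 UMI 0.761 and 0.720. Mock Krt5 rested on about 8.7 UMIs at the median total, too few to show a modest change of its ratio. In cluster 6, 9.41% of 4069 genes were past the rule (4.92% of the 4069 on the higher side), and Krt14 was the only one of the 8 genes to reach a level of 0.5. The cluster held 80.1% of the Krt14 expression of the mock library and 79.9% of that of the ligated library (level times number of cells), and 48.6% and 73.8% of Krt5. The other 51.4% of mock Krt5 lay in the shallow cells of ductal-like cluster 7. At the median totals that was about 1.5 UMIs, against 8.7 in cluster 6.

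Other genes of basal and myoepithelial cells were present at low levels there. Trp63 stood at 0.0395 and 0.194 and Lgals7, a galectin of stratified and myoepithelial cells, at 0.0910 and 0.312, while the oxytocin receptor gene Oxtr was listed at 0 in both libraries. The contractile genes shared by mural and myoepithelial cells went the other way, with Myh11 (14.4 to 4.20) and Tagln (30.7 to 13.3) past the rule and lower and Acta2 at 35.4 and 20.8. The 8 mural markers, Acta2 and Myh11 among them, summed to 171 in mock and 116 in ligated cells. Luminal members were also seen in cluster 6. Krt7 stood at 0.217 and 0.458, Krt8 at 0.258 and 0.269, Krt18 at 0.0283 and 0.168, and Epcam at 0.0146 and 0.424, its mock level being 1 UMI in 1 cell of 4244 UMIs. Klk1 was higher there as well (0.478 to 2.90), and the part of free duct RNA in these levels was not tested.

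A second pair of tables covers a subset of cells named after Pdgfra, Pdgfrb and Gli1 (fibroblast and mural genes), which held 9.55% of mock and 17.0% of ligated cells. It held 99.98% of the Pdgfrb expression of the mock library and 99.9% of that of the ligated library. The basal keratins were nearly absent from it. Of the summed Krt14 expression, 0% of mock and 4.80% of ligated lay in the subset, of Krt17 0% and 3.74%, and of Krt5 3.0% and 8.06%. Its mural cluster, subset cluster 2, listed Krt14 at 0 in 128 mock cells (which allows up to 2.34% of cells) and at 0.0667 in 274 ligated cells. Mural genes lay on the other side, with 92.6% and 88.0% of Rgs5 and 95.5% and 88.4% of Notch3 inside. The contractile genes were divided: 60.9% of mock and 36.7% of ligated Acta2 lay in the subset, 68.9% and 36.7% of Tagln, and 21.3% and 5.60% of Cnn1 (calponin). The Krt14 expression of cluster 6 therefore came almost wholly from cells outside the Pdgfra, Pdgfrb and Gli1 subset, in both libraries.

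**Figure D3:**
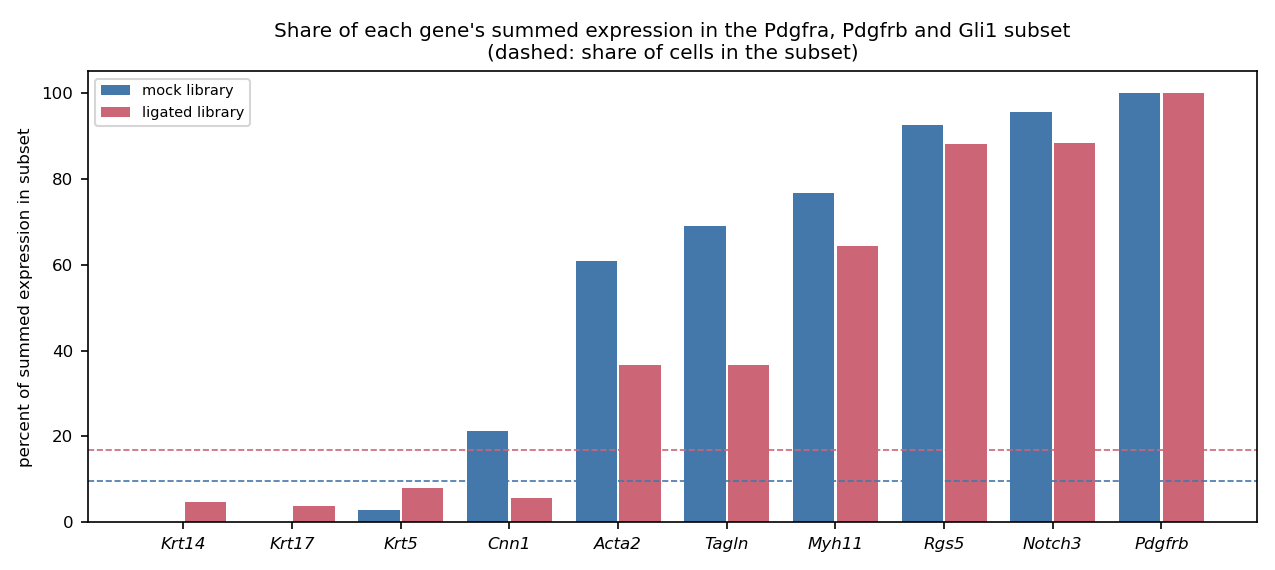
Share of each gene's summed expression (percent, level times number of cells over all clusters) that lay in the Pdgfra, Pdgfrb and Gli1 subset, by library, with dashed lines at the subset's share of cells. Krt14, Krt17 and Krt5 lie between 0 and 8.06%, below the share of cells in each library, while Rgs5, Notch3 and Pdgfrb lie above 88%.

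Epcam stood at a larger part of its library mean in lymphoid clusters than Krt7, Krt8 and Krt18. In natural killer-like cluster 1 it stood at 0.0850 in 679 mock cells and 0.208 in 3353 ligated cells, and in T cell-like cluster 2 at 0.102 in 155 mock and 0.164 in 1393 ligated cells. Neither difference (0.73 and 0.39) was past the rule. The level of a duct gene in other cells can be free RNA taken up by droplets, so each was set against the gene's mean over its library. Epcam in cluster 1 was 87.0% of its library mean in mock and 80.3% in ligated, and in cluster 2 104% and 63.5%. Klk1 was at 3.07% and 7.02% of its mean in cluster 1 and 2.82% and 8.0% in cluster 2. Krt7, Krt8 and Krt18 lay between 0.644% and 10.2% in cluster 1 and between 0 and 11.7% in cluster 2. The scarce keratins were listed at 0 in the mock cells of both clusters, apart from Krt14 at 7.60% in cluster 1. In ligated cells Krt19 was at 39.2% and 15.4% of its mean, Krt5 at 12.5% and 21.1%, and Krt14 at 10.5% and 15.2%, from levels of at most 0.0172.

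In the ligated library, Epcam in mural-like cluster 6 was high beside Krt18 and Klk1 but not beside the basal keratins. There Epcam was at 164% of its library mean (15.0% in mock), with Klk1 at 11.6%, Krt18 at 24.7%, Krt7 at 71.5% and Krt8 at 131%. Krt14 was at 2171% of its mean and Krt5 at 2005%. In endothelial-like cluster 0, Epcam was at 8.04% of its library mean in mock and 9.22% in ligated cells, near Krt8 at 10.6% and 10.2%. In fibroblast-like cluster 3, Epcam was listed at 0 in 188 mock cells (up to 1.60% of cells) and was at 5.04% of its mean in ligated cells. Per Krt18 UMI, ligated Epcam came to 3.05 in cluster 1, 2.08 in cluster 2 and 2.53 in cluster 6, against 0.240 in the ductal-like cells of the same library. Of the 15 surface and junction genes, 8 were above 0 in the mock cells of each lymphoid cluster, with Cldn3, Cldn4, Cldn7 and Spint1 among those at 0, and 14 and 12 were above 0 in the ligated cells. Their summed level was 1.98 in mock and 1.97 in ligated cells of cluster 1, and 1.5 and 1.29 in cluster 2. By level times number of cells, clusters 1 and 2 together held 17.9% of Epcam in mock and 31.4% in ligated, and cluster 7 held 75.1% and 52.6%. These shares weigh each cell alike whatever its depth, and cluster 7 was shallow. At the median recovered totals, mock Epcam came to about 46.4 UMIs in cluster 1, 9.9 in cluster 2 and 33.3 in cluster 7. In the ligated library it came to about 579, 173 and 157, so by these estimates cluster 7 did not hold the most Epcam. The recovered totals favour deep cells and covered the clusters unequally. Cluster 1 gave 32 totals for 679 mock and 163 for 3353 ligated cells, and cluster 7 gave 99 for 201 and 152 for 278. The order by UMIs is therefore uncertain. The part of free RNA in these levels was not tested.

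**Figure D4:**
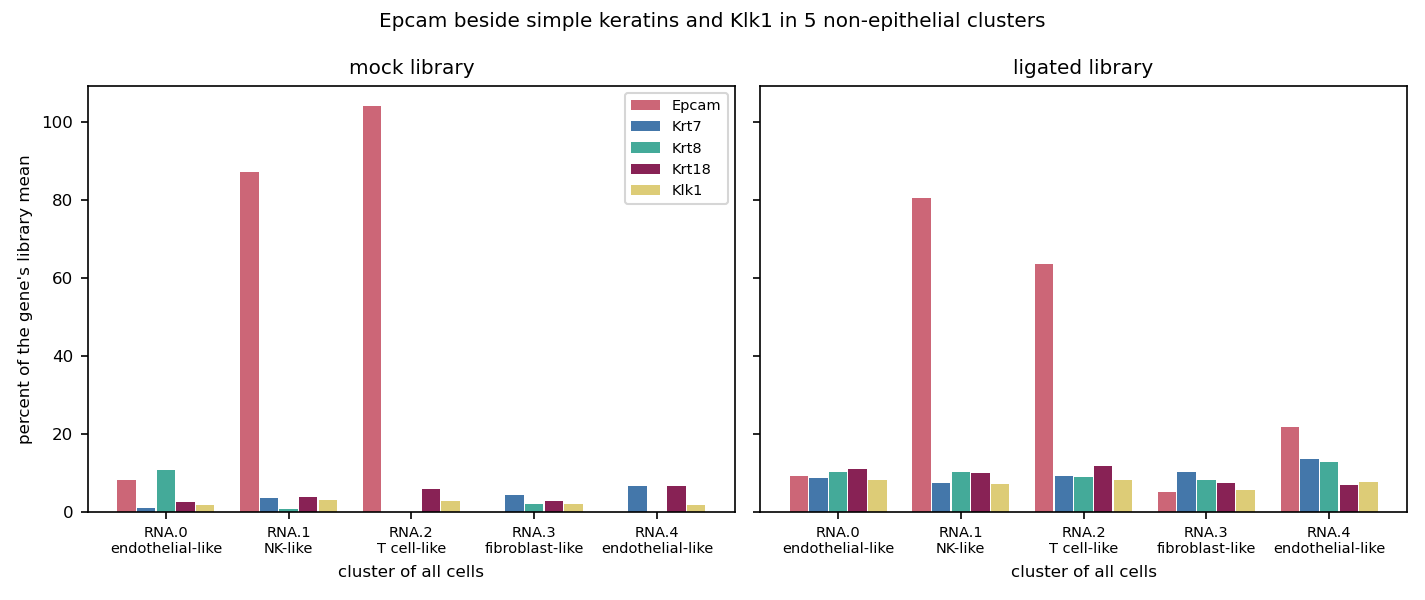
Level of Epcam, 3 luminal keratins and Klk1 in 5 clusters as a percent of each gene's mean over its library, mock left and ligated right. Epcam stands at 63.5% to 104% in the NK-like and T cell-like clusters, where each of the other genes stays at or below 11.7%.

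Krt19 and Krt15 were the scarcest members. Krt19 was above 0 in clusters 3 and 7 of the mock library and in 7 clusters of the ligated library. In fibroblast-like cluster 3 it stood at 0.0256 and 0.0160. That expression could be followed into the subset tables: the whole mock sum of cluster 3 equalled that of subset cluster 0, and 94.1% of the ligated sum equalled that of subset cluster 4. Subset cluster 4 held 10 mock and 17 ligated cells and had Fn1, Pcolce2, Fndc1, Smpd3, Dpt, Dpp4 and Pi16 among its leading genes, of which Dpp4 and Pi16 are known from fibroblasts around vessels. Krt19 stood at 1.02 in its ligated cells and was listed at 0 in its mock cells (0 of 10, which allows up to 30.0%). Krt15 was listed at 0 in all 4199 mock cells (up to 0.0714% of cells). In the ligated library it was above 0 in macrophage-like cluster 5 (0.00491, 1 UMI in 1 cell) and in cluster 6 (0.00567).

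Outside clusters 7 and 8, low levels were higher in the ligated library for nearly every member. There were 64 pairs of a member and one of the 8 other clusters of sufficient size. The ligated level was higher in 50 pairs, the mock level in 3, and both were 0 in 11. Many of the 50 had a mock level of 0, as Krt5 did in clusters 0, 1, 2, 3 and 5. Most of these clusters held fewer mock cells (77 against 680 in cluster 5), and a scarce gene is more easily listed at 0 in fewer cells. The part of cell numbers in this count was not tested. Over all genes, not matched for level, the ligated level was higher in 60.8% of 134066 pairs that differed. Klk1 was higher in 8 of 8 of these clusters. Only Krt14 in cluster 6 reached the level of 0.5 and it was past the rule, beside 9.25% of 27629 such pairs over all genes. The acinar-list gene Mucl2 was higher in the ligated library in 3 of the 8 clusters. Wfdc18 of the ductal list stood at 8.61 and 1.0 in cluster 6, but in mock cells it stood at 152 in cluster 8 and 2.22 in cluster 7. How much of these low levels was free RNA was not tested. In macrophage-like cluster 5 the ligated levels were 0.344 for Krt7, 0.155 for Krt8 and 0.401 for Krt18 (0.0877, 0.209 and 0.168 in mock), that is 53.7%, 75.7% and 59.0% of their library means, with Klk1 at 44.2%.

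Several of the isolated levels came from single cells. Cluster 11 was led by cycling and neutrophil genes, and the 4 neutrophil markers summed to 36.3 in its mock and 0.0188 in its ligated cells. There Krt8 stood at 0.841 in 22 mock cells and 0.606 in 59 ligated cells. The first value was 3 UMIs in 1 cell of 1621 UMIs, whose total also accounted for the Krt7 level of 0.280, and the second was 2 UMIs in 1 cell of 559 UMIs. In erythroid-like cluster 10, Krt8 was listed at 0 in 85 mock cells (up to 3.53%) and stood at 0.363 in 60 ligated cells, which was 177% of its library mean beside 24.4% for Klk1. The mock level of Epcam in cluster 5 (0.0201) was 1 UMI in 1 cell.

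Over whole libraries, the luminal members differed less than within cluster 7, whose share of cells was smaller in the ligated library. Epcam had a mean of 0.0978 in mock and 0.259 in ligated, Krt7 0.413 and 0.640, Krt18 0.566 and 0.679, and Krt8 0.219 and 0.205. Krt14 had 0.0298 and 0.113, Krt5 0.00651 and 0.0174, Krt19 0.00424 and 0.00883, and Krt15 0 and 0.000502. None was past the rule, beside 12.5% of 3823 genes. With the mock mix of clusters in both libraries, Krt7 went from 0.413 to 1.14 and was past it. By level times number of cells, cluster 7 held 95.4% of mock and 84.8% of ligated Krt7, 94.5% and 83.4% of Krt18, and 85.1% and 75.7% of Krt8. For Krt19 it held 73.0% and 45.6%, the mock share resting on 1 UMI in 1 cell. For Krt14 it held 16.8% and 3.25%.

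**Figure D5:**
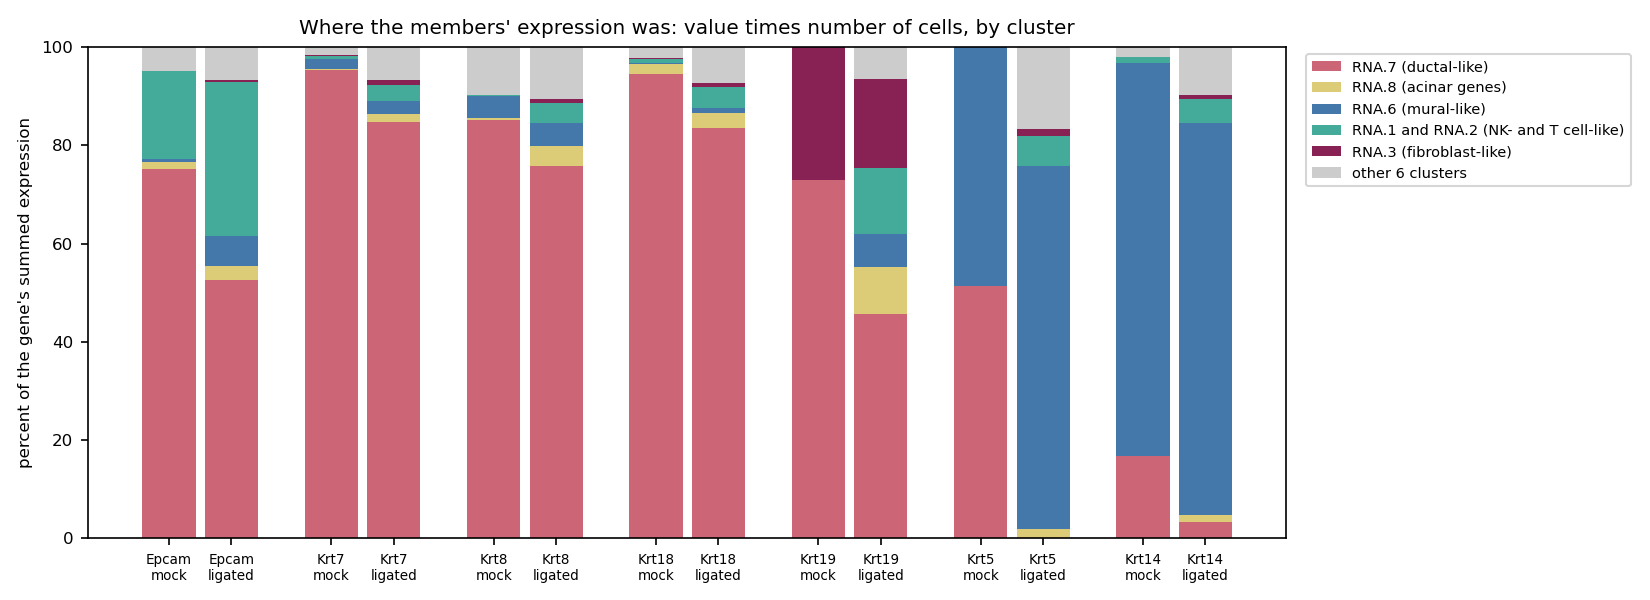
Share of each gene's summed expression (percent, level times number of cells) by cluster, 1 bar per gene and library. Each cell weighs alike whatever its depth, so these are not shares of UMIs. Cluster 7 holds most of Krt7, Krt8 and Krt18 in both libraries, the 2 lymphoid clusters hold 31.4% of ligated Epcam, and cluster 6 holds most of Krt14.

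The patterns of the members over the 24 cluster columns (12 clusters in each library, which share cells of 1 suspension and 1 normalization) fell into a luminal and a basal set. Pearson's r of log2(level + 0.1) was 0.90 between Krt7 and Krt18, 0.94 between Krt5 and Krt14, and 0.14 between Krt5 and Krt18. Among 7968 genes that reached a level of 0.5, those most like Krt18 were the kallikrein genes Klk1b11 and Klk1b9 and Gm16136 (each 0.97), and those most like Krt7 were Urah (0.95), Rab25 and Mapk13 (0.94 each). For Epcam they were Wfdc2 (0.95), Plet1 (0.92) and Cox7b (0.90), and for Krt8 Mrpl14 (0.92), Vdac2 and Mrpl42 (0.91 each). For Krt14 they were Lmod1, Higd1b and Pcp4 (each 0.93), of which Higd1b also led cluster 6, and for Krt5 Krt14, Pcp4 (0.90) and Ddit4l (0.89). Krt19 was most like Cldn3 (0.96), Ascl3 (0.94) and Elf3 (0.93), and Krt15, above 0 in 2 columns, most like Ecrg4 (0.76), Krt14 (0.67) and Morrbid (0.65).

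Among 21 keratin rows of the tables, 7 reached a level of 0.5 in some column. Besides Krt7, Krt8, Krt14, Krt17 and Krt18 these were Krt23 and Krt83. Krt23, a type I keratin, was highest in ductal-like cells. There it was lower after ligation (2.03 in mock and 1.48 in ligated) but not past the rule, while Krt7 and Krt18 were higher. Krt83 stood at 0.685 in the 59 ligated cells of cluster 11 and 0.156 in the 22 mock cells.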

How the data were processed

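Droplet single-cell RNA (10X Genomics) was measured in 1 mock and 1 ligated library of 2 glands each. Per the submitters' processing notes, Cell Ranger 6.0.1, Seurat and mm10 were used. Filters on cells, clustering settings and doublet removal are not given in the sources used here, and no doublets were removed here. The authors deposited 4 tables of cluster means (12 clusters of all cells and 5 of a subset, together and split by library). The deposited values are linear means of UMIs per 10000 (unit other), read from the values: every column sums to 10000. Dates had replaced 21 gene names, which were restored by row order, and 0 value columns lacked a sample.

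Cell numbers were recovered as whole numbers that fit the weights joining split and joint means (tolerance 2e-09). UMI totals came from genes seen in 1 cell (whole within 1e-06), kept where at least 2 genes gave them and no small multiple of them was found. Members' own levels were called 1 cell where 1 to 4 UMIs gave a whole total. Limits for a gene listed at 0 are 3 counts over the cells. With 1 library per group there was no test, and the size rule of the report stands in its place. The scripts were tested on simulated data. Python 3.11.15, numpy 2.4.6, pandas 2.3.3, scipy 1.17.1 and matplotlib 3.10.9 were used.

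The members and the gene lists (luminal keratins, basal keratins, surface and junction, desmosome and linkers, transcription and splicing, myoepithelial, ductal and acinar, 92 genes of which 4 have no row) were chosen with earlier results of these data known. Some list genes are not reported here and were left out of the counts. List genes entered with a mean level of at least 0.05, and a median needed 3. Named genes are members, list genes, keratin rows reaching 0.5, the 3 genes most like each member, and genes that lead a cluster, and those that mark a cell type. Coordinates are from the mm10 annotation (GRCm38.p6), and promoters from RefSeq, where 6 of 8 members matched (not Krt15 and Krt19). The promoter entry of Krt14 lies inside the gene and is not shown. Alternatives were other pseudocounts, thresholds, centring, cell mixes and subtraction of a free-RNA profile. Rescaling without genes at 50 or more, and library means without clusters 8, 9 and 11, were chosen after seeing the data.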

Additional observations from a re-analysis of the deposited data

Results flagged for a closer look

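Krt18 differed in direction between the clusters that carried epithelial genes. It was higher after ligation in ductal-like cluster 7 (difference 1.05 on the log2 scale, from 11.2 to 23.3) and lower in cluster 8, led by acinar genes (difference −1.0, from 2.00 to 0.946). The difference between the clusters was not tested, since each library gives 1 value per cluster. The mock value of cluster 8 came from 25 cells.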

How the results depend on the processing

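In cluster 7, 3 members were past the size rule, and 0 with a difference of at least 2. In cluster 8 the count of 1 became 0 with a pseudocount of 1, 0 with a higher level of at least 2, 0 with a difference of at least 2, and 2 with no minimum level (Krt7 higher, Krt18 lower). In the other clusters the count of 1 became 0 with a difference of at least 2 and 7 with no minimum, all higher: Krt7 in cluster 5, Epcam, Krt5, Krt14 and Krt18 in cluster 6, and Krt8 and Krt18 in cluster 10. For library means the count of 0 became 1 at the mock mix (Krt7) and 2 with equal weight for every cluster (Epcam and Krt7). In cluster 8 rescaling reversed Epcam (−0.90) and Krt8 (−0.24), and centring on the median of all genes reversed Epcam (−1.12), Krt5 (−1.17), Krt7 (−0.18), Krt8 (−0.58), Krt14 (−0.61) and Krt19 (−0.91). With a pseudocount of 1, Krt18 fell short of the rule in cluster 7 (0.99) and cluster 8 (−0.62). The other 34 settings for counts and shares, and 214 for single genes, kept direction and side of the rule, apart from Krt15 in clusters 7 and 8, which is at 0 in both libraries and has no direction; a count was taken as kept within 1.5 times. No paired analysis was possible because each group is 1 library. Depth limits Krt5, Krt14, Krt15 and Krt19 in the shallow cells of cluster 7, where each level corresponds to at most 4.6 UMIs at the median total.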
